A study of Mus musculus with 20 samples.

Results

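The 9 genes Cyp26a1, Cyp26b1, Dhrs3, Lrat, Stra6l, Aldh1a1, Aldh1a2, Rbp4 and Rdh16 carry, store, convert or break down retinoids, and several of them respond to retinoic acid. They were chosen by symbol, each symbol matched 1 Ensembl identifier, and together they are 9 of the 57010 genes in the count table. Bulk mRNA-seq was available for the livers and kidneys of male UM-HET3 mice, a genetically heterogeneous stock bred from several inbred strains. The mice were 12 months old and carried subcutaneous osmotic minipumps for 28 days. The 7c group (n = 6 per tissue) received repsox, tranylcypromine, DZNep, forskolin, CHIR99021 and TTNPB at 0.1 mg/kg/day each and valproate at 1 mg/kg/day. The vehicle group (n = 4 per tissue) received the solvent of 50% DMSO and 50% PEG300 alone, so that pump, surgery and solvent were common to both groups. All 7 compounds were given together, and the part of any 1 of them cannot be told apart from that of the others.

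Retinol reaches tissues from the liver bound to retinol-binding protein, and inside cells it is either esterified for storage or oxidised to retinal and then to retinoic acid. Retinoic acid binds the receptors RAR and RXR on DNA, and the genes it switches on include enzymes of the CYP26 family that degrade it, which closes a feedback loop. In the liver, most stored retinyl ester lies in hepatic stellate cells, while hepatocytes secrete retinol-binding protein. TTNPB is a synthetic agonist of the retinoic acid receptors, so the comparison of 7c with vehicle asks whether these genes differed in tissues of mice that received it.

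Cyp26a1 is the member with the best known retinoic acid response element, and its promoter is shown because it had the lowest p of the members for 7c against vehicle, although it was not called. Promoters were read from RefSeq (GRCm38.p6), and the 250 bases before each start site were searched on both strands for 2 half-sites of the receptor in the same orientation with 5 bases between them. The half-sites searched were AGGTCA with its variant AGTTCA, as well as GGGTCA with its variant GGTTCA, and both half-sites of a repeat are in capitals. The Cyp26a1 sequence was found once on chromosome 19 of GRCm39, plus strand, at chr19:37686006-37686255, and the repeat lies at 37686224 to 37686240, on the strand opposite to the gene, 15 bases before the RefSeq start site. The repeat of Rarb, a receptor gene that is itself a textbook target of retinoic acid, is shown for comparison at chr14:5894228-5894256, plus strand, 36 bases before its start site.
Cyp26a1: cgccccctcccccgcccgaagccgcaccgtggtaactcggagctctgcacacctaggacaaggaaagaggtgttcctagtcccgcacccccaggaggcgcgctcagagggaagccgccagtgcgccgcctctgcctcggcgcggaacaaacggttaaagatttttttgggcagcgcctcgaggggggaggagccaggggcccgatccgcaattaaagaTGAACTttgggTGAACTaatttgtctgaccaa
Rarb: gggaagGGTTCAccgaaAGTTCActcgca
Read on the strand of the repeat, both half-sites of Cyp26a1 are AGTTCA, and those of Rarb are GGTTCA and AGTTCA. Such a repeat was found before 29 of 32851 start sites, in 28 of 27025 genes (0.104%). Of the 9 members, Cyp26a1 alone held it in these windows. A repeat with 2 bases between the half-sites was found before 57 start sites (0.174%) and before none of the members. A match is a stretch of letters and was not measured as a binding site here. A single half-site alone is common and was found before 38.6% of start sites.

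Depth was 28383359 to 34153084 counts per liver library and 27855849 to 64872451 per kidney library. Every liver library of the 7c group was smaller than every one of the vehicle group, whose lowest total was 31670440, so depth and treatment cannot be told apart in liver. Summed markers of skeletal muscle stood at 705 CPM in the liver of 7c replicate 6 and at 0.363 or less in the other livers. Leaving out the kidney of vehicle replicate 2 raised the genes at an unadjusted p under 0.05 in kidney from 463 to 1801, and values with and without these libraries are given where they matter. Levels in CPM, counts relative to library size, were TMM scaled over all 20 libraries and are used throughout except where a level is given per length. The search for the genes most like a member, and the likeness of livers and kidneys over all genes, used CPM scaled within each tissue. In bulk tissue, fewer cells of a type and less RNA per cell cannot be told apart.

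On GRCm39, Cyp26a1 (ENSMUSG00000024987) lies on chromosome 19 at 37686241 to 37689984, with Rbp4 (ENSMUSG00000024990) 415 kb away at 38105066 to 38113754 and Aldh1a1 (ENSMUSG00000053279) on the same chromosome at 20469539 to 20622825. Cyp26b1 (ENSMUSG00000063415) lies on chromosome 6 at 84548396 to 84570890 and Lrat (ENSMUSG00000028003) on chromosome 3 at 82799886 to 82811288. Dhrs3 (ENSMUSG00000066026) and Stra6l (ENSMUSG00000028327) lie on chromosome 4 at 144619245 to 144654779 and 45848664 to 45887011. Aldh1a2 (ENSMUSG00000013584) lies on chromosome 9 at 71122630 to 71203527 and Rdh16 (ENSMUSG00000069456) on chromosome 10 at 127637001 to 127682434.

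In TPM, the transcript share of a library corrected for gene length, Rbp4, the plasma carrier of retinol, stood far above the other members in liver at 8224 ± 671 (SD, n = 10, both treatments together). Aldh1a1, an enzyme that oxidises retinal to retinoic acid, followed at 695 ± 109, and Dhrs3, which reduces retinal back to retinol, at 209 ± 23.4. Stra6l, a membrane receptor for retinol-binding protein that is also called Rbpr2, had 79.0 ± 14.2 TPM and Rdh16, a retinol dehydrogenase, 70.0 ± 18.2. These neighbours in the order were closer than their spread, and their order turned when the longest transcript of each gene was used as its length (79.8 and 107 TPM). Cyp26a1 stood at 41.3 ± 9.22, Lrat, the enzyme that esterifies retinol for storage, at 10.1 ± 3.56, and Cyp26b1, the CYP26 enzyme of many other tissues, at 4.58 ± 4.89 TPM. Aldh1a2, the main retinoic acid synthesising enzyme of the embryo, was lowest at 0.235 ± 0.139 TPM.

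The order was different in kidney. Dhrs3 was highest at 235 ± 52.4 TPM (n = 10), followed by Rdh16 at 76.4 ± 17.1 (122 with the longest transcript as length) and Aldh1a1 at 24.8 ± 5.01. Stra6l had 7.96 ± 3.16, Rbp4 5.18 ± 2.19, Cyp26b1 3.55 ± 6.32 and Aldh1a2 3.23 ± 0.811 TPM, and from Rbp4 to Aldh1a2 the neighbours in this order did not differ beyond their spread. Cyp26a1 at 1.00 ± 0.463 and Lrat at 0.926 ± 0.548 TPM did not differ beyond their spread.

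Rbp4 and Cyp26a1 set liver and kidney furthest apart. In vehicle mice Rbp4 had 4154, 3881, 3612 and 3850 CPM in the livers and 2.49, 2.15, 1.19 and 0.892 CPM in the kidneys. This was a log2 difference of 11.16 ± 0.41 (SE), with an adjusted p of 3.38e-09 in edgeR's quasi-likelihood test with Benjamini-Hochberg adjustment over all genes tested. Cyp26a1 had 30.4, 39.7, 28.9 and 33.4 CPM in vehicle livers and 0.208, 0.313, 0.637 and 0.529 CPM in vehicle kidneys, a log2 difference of 6.29 ± 0.32 (adjusted p = 3.16e-08). For both genes the lowest liver lay far above the highest kidney.

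Aldh1a1, Lrat and Stra6l were also higher in vehicle liver than in vehicle kidney. The log2 differences were 5.29 ± 0.29 for Aldh1a1 (adjusted p = 5.18e-08), 4.00 ± 0.44 for Lrat (1.61e-05) and 3.74 ± 0.18 for Stra6l (1.88e-08) in edgeR's quasi-likelihood test. Aldh1a2 was the member that was lower in liver, by 2.84 ± 0.38 on the log2 scale (adjusted p = 7.74e-05), at 12, 18, 8 and 12 counts in the vehicle livers. In all, 5 of the 9 members tested were called higher in liver, where 25.7% of all 17245 genes tested were, and 1 was called lower, where 27.7% of all genes were. The median log2 difference of the members was 3.74, beside -0.06 over all genes tested.

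The other members were without a call in vehicle mice in this fit, which did not pair liver and kidney by replicate number. Dhrs3 had 219, 268, 225 and 205 CPM in vehicle livers and 148, 319, 147 and 165 CPM in vehicle kidneys, a log2 difference of 0.23 ± 0.25 (adjusted p = 0.451). Its kidney values overlapped those of liver through vehicle replicate 2 alone, and without that replicate number in both tissues the difference was 0.42 with an adjusted p of 0.00733. Rdh16 differed by 0.12 ± 0.18 (adjusted p = 0.609) and Cyp26b1 by 1.60 ± 0.78 (adjusted p = 0.109), which was 0.56 without vehicle replicate 2 and 2.39 without vehicle replicate 4.

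In 7c mice, liver was again compared with kidney, and 6 members were called higher in liver, where 30.9% of all 17117 genes tested were, and 1 lower, where 34.8% of all genes were. The log2 differences were 11.09 for Rbp4, 5.58 for Cyp26a1, 5.29 for Aldh1a1, 3.91 for Lrat, 3.85 for Stra6l and -3.61 for Aldh1a2. Aldh1a2 had 4, 8, 0, 18, 6 and 8 counts in the 7c livers and entered this comparison through its kidney counts, where it is high, so its call is no separate evidence of a direction. Cyp26b1 was at 0.69 ± 0.97 (adjusted p = 0.546), and at 1.49 without 7c replicate 3 and 0.45 without 7c replicate 5. This fit did not pair the tissues by replicate number either, and whether Cyp26b1 in both treatments and Dhrs3 in 7c mice were called depended on that choice. Rdh16 was called here at 0.54 ± 0.17 (adjusted p = 0.0132 in edgeR's quasi-likelihood test), although without 7c replicate 5 its adjusted p was 0.0589. Dhrs3 was at 0.34 ± 0.15 (adjusted p = 0.0598), and without 7c replicate 5 at 0.46 (adjusted p = 0.0140). Unpaired, Dhrs3 was also called with limma-voom (0.36, adjusted p = 0.0352) and after the filterByExpr filter (0.37, adjusted p = 0.0480 in edgeR's quasi-likelihood test).

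**Figure D1:**
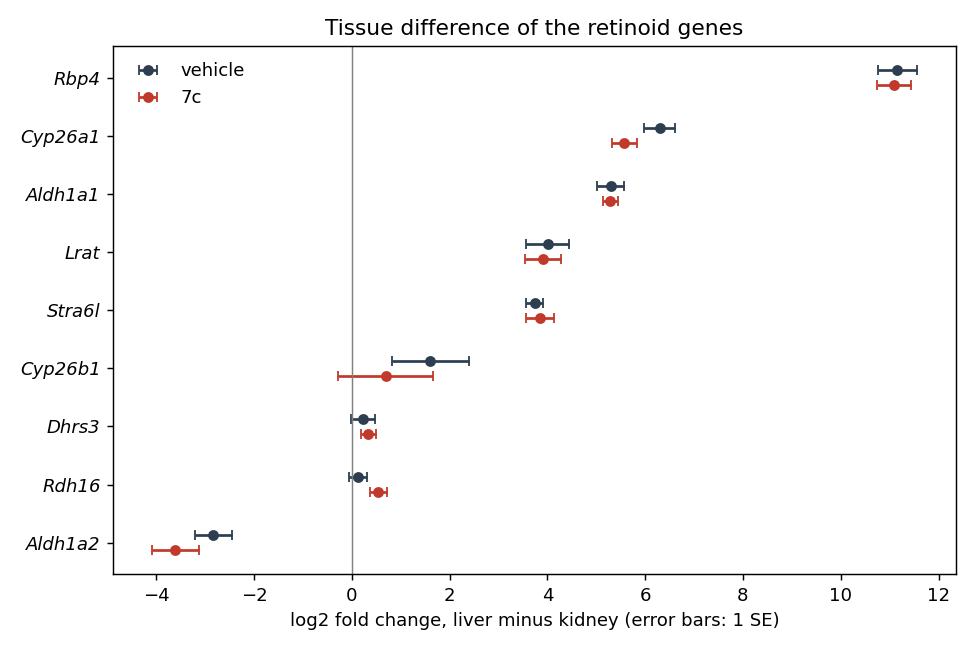
Log2 fold change of liver minus kidney (horizontal axis) for the 9 genes, in vehicle mice (dark points) and 7c mice (red points), with 1 SE as error bars. Rbp4 is highest at 11.16 in vehicle mice, Aldh1a2 is the gene on the negative side at -2.84, and Dhrs3, Rdh16 and Cyp26b1 lie nearest to 0.

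Cyp26a1 was the member with the lowest p in the comparison of 7c with vehicle. In liver, 7c mice had 30.3, 19.9, 24.4, 28.1, 22.3 and 24.0 CPM, and vehicle mice 30.4, 39.7, 28.9 and 33.4 CPM. Of these, 5 libraries of the 7c group lay below every vehicle library, and replicate 1 lay inside the vehicle range. The group means were 24.8 ± 3.80 (SD, n = 6) and 33.1 ± 4.78 CPM (n = 4), and the log2 fold change was -0.44 ± 0.13 (SE). The unadjusted p of edgeR's quasi-likelihood test was 0.00432 and the adjusted p 0.9996, so the difference was larger than the spread between libraries for this gene taken alone and did not pass over all genes tested. A two-sided exact permutation test of log2 CPM gave p = 0.0143, where 210 splits allow no value below 0.00476. The direction was the same without any 1 library (log2 fold change -0.50 to -0.35), also without 7c replicate 6 (-0.43).

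In kidney, Cyp26a1 was near the lower end of what was counted, at 12 to 49 counts in the 7c group and 10 to 30 in the vehicle group. The 7c kidneys had 0.598, 0.733, 0.726, 0.399, 0.301 and 0.267 CPM and the vehicle kidneys 0.208, 0.313, 0.637 and 0.529, and the groups overlapped. The log2 fold change was 0.25 ± 0.45 (adjusted p = 0.997). The difference between the treatment effects in the tissues was -0.71 ± 0.37 on the log2 scale (interaction, unadjusted p = 0.0730, adjusted p = 0.99994 in edgeR's quasi-likelihood test). A treatment effect that differed between the tissues was not shown.

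None of the 8 members tested in liver was called for 7c against vehicle, where 0.00666% of all 15012 genes were (1 gene, no member), and none of the 9 members tested in kidney, where 0% of 17749 genes were (DESeq2 called 18 genes in kidney, no member). The paper, with its own edgeR fit, lists differentially expressed genes in both tissues, and no member is among them. At an unadjusted p under 0.05 stood Cyp26a1 alone in liver, beside 3.76% of all genes (565), and no member in kidney, beside 2.61% of all genes (463). No member had groups without overlap in either tissue, a pattern that 0.666% of the genes tested in liver and 0.716% of those in kidney showed. The median log2 fold change of the members was 0.03 in liver and 0.03 in kidney, beside 0.00 and -0.01 over all genes tested. In the interaction of treatment and tissue 0.00706% of 14163 genes were called, and none of the 8 members tested.

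**Figure D2:**
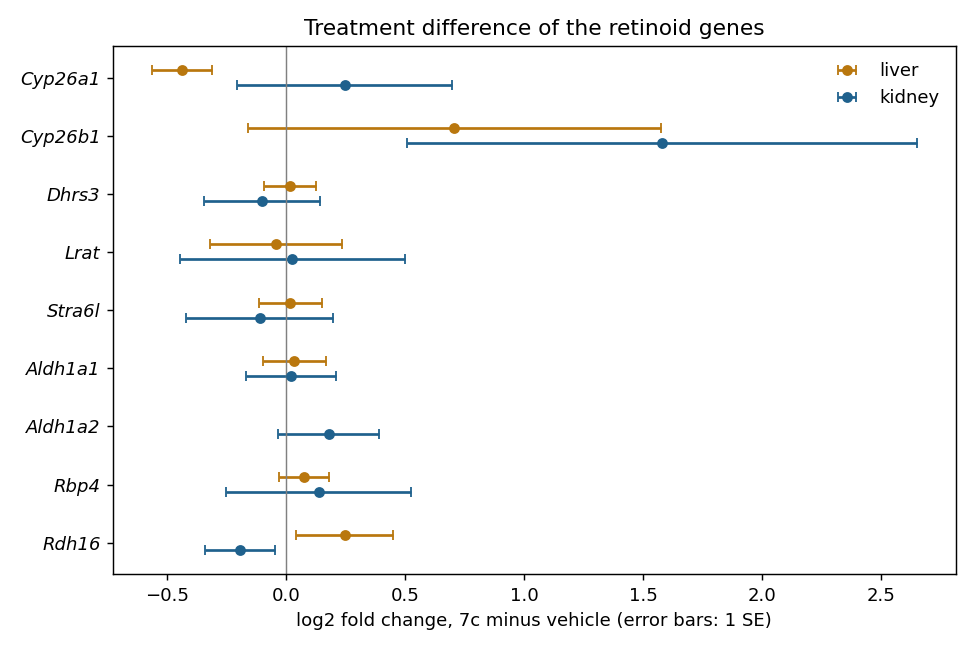
Log2 fold change of 7c minus vehicle (horizontal axis) for the 9 genes in liver and kidney, with 1 SE as error bars. Cyp26a1 in liver lies at -0.44 with a bar that stays below 0, as does the bar of Rdh16 in kidney. The bars of Cyp26b1 in kidney and Rdh16 in liver stay above 0, and both Cyp26b1 values carry the widest bars. Aldh1a2 has no liver value because it was not tested there.

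The members of storage, transport and synthesis lay close together in both groups. Rbp4 had a mean of 4142 ± 474 CPM in 7c livers and 3874 ± 222 in those of the vehicle group (log2 fold change 0.07 ± 0.11). In kidney it stood at 1.87 ± 0.837 and 1.68 ± 0.763 CPM (log2 fold change 0.14 ± 0.39, 32 to 145 counts). Adipocytes also express Rbp4, and the summed level of 6 adipocyte markers was 46.7 to 120 CPM in 7c kidneys and 29.5 to 39.8 in vehicle kidneys. None of the 6 was called in the fit used here, while the paper lists Cidec, which is among them, as higher in 7c kidneys. The part of adipocytes in the Rbp4 value was not tested. Lrat had a log2 fold change of -0.04 ± 0.28 in liver and 0.03 ± 0.47 in kidney, and Stra6l of 0.02 ± 0.13 and -0.11 ± 0.31. Aldh1a1 had 0.04 ± 0.13 in liver and 0.02 ± 0.19 in kidney, and Aldh1a2 0.18 ± 0.21 in kidney, where its means were 3.77 ± 0.957 and 3.31 ± 0.536 CPM. In liver Aldh1a2 had 0 to 18 counts per library and was not tested. All these groups overlapped.

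Dhrs3, which retinoic acid induces in many cells, had 260, 198, 246, 277, 220 and 211 CPM in 7c livers and 219, 268, 225 and 205 CPM in vehicle livers. The groups overlapped, with a log2 fold change of 0.01 ± 0.11. In kidney it had 198, 163, 134, 212, 254 and 138 CPM in the 7c group and 148, 319, 147 and 165 CPM in the vehicle group. The log2 fold change was -0.10 ± 0.24, and without vehicle replicate 2 it was 0.24 (adjusted p = 0.572 in edgeR's quasi-likelihood test), so that 1 library set the sign.

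Rdh16 had 237, 149, 131, 119, 216 and 190 CPM in 7c livers and 138, 142, 190 and 103 CPM in vehicle livers, with a log2 fold change of 0.25 ± 0.20 (unadjusted p = 0.248). In kidney the 7c group had 115, 119, 159, 105, 109 and 92.8 CPM and the vehicle group 123, 126, 157 and 122, with a log2 fold change of -0.19 ± 0.15 (unadjusted p = 0.216). In kidney 5 of the 6 values of the 7c group lay below every vehicle value, and in liver 2 of 6 lay above. Single libraries moved both values. The kidney value was -0.10 without vehicle replicate 3 and -0.30 without 7c replicate 3 (unadjusted p = 0.0248), and the liver value ran from 0.12 when vehicle replicate 4 was left out to 0.43 when vehicle replicate 3 was (unadjusted p = 0.0632). The interaction was 0.43 ± 0.27 (unadjusted p = 0.125). Rdh16 lies on chromosome 10 beside related dehydrogenase genes, Rdh19 at 3.36 kb, Rdh9 at 8.44 kb and Rdh16f2 at 19.9 kb, and reads that match several of them could have been split or dropped in the counting, so its level is uncertain.

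**Figure D3:**
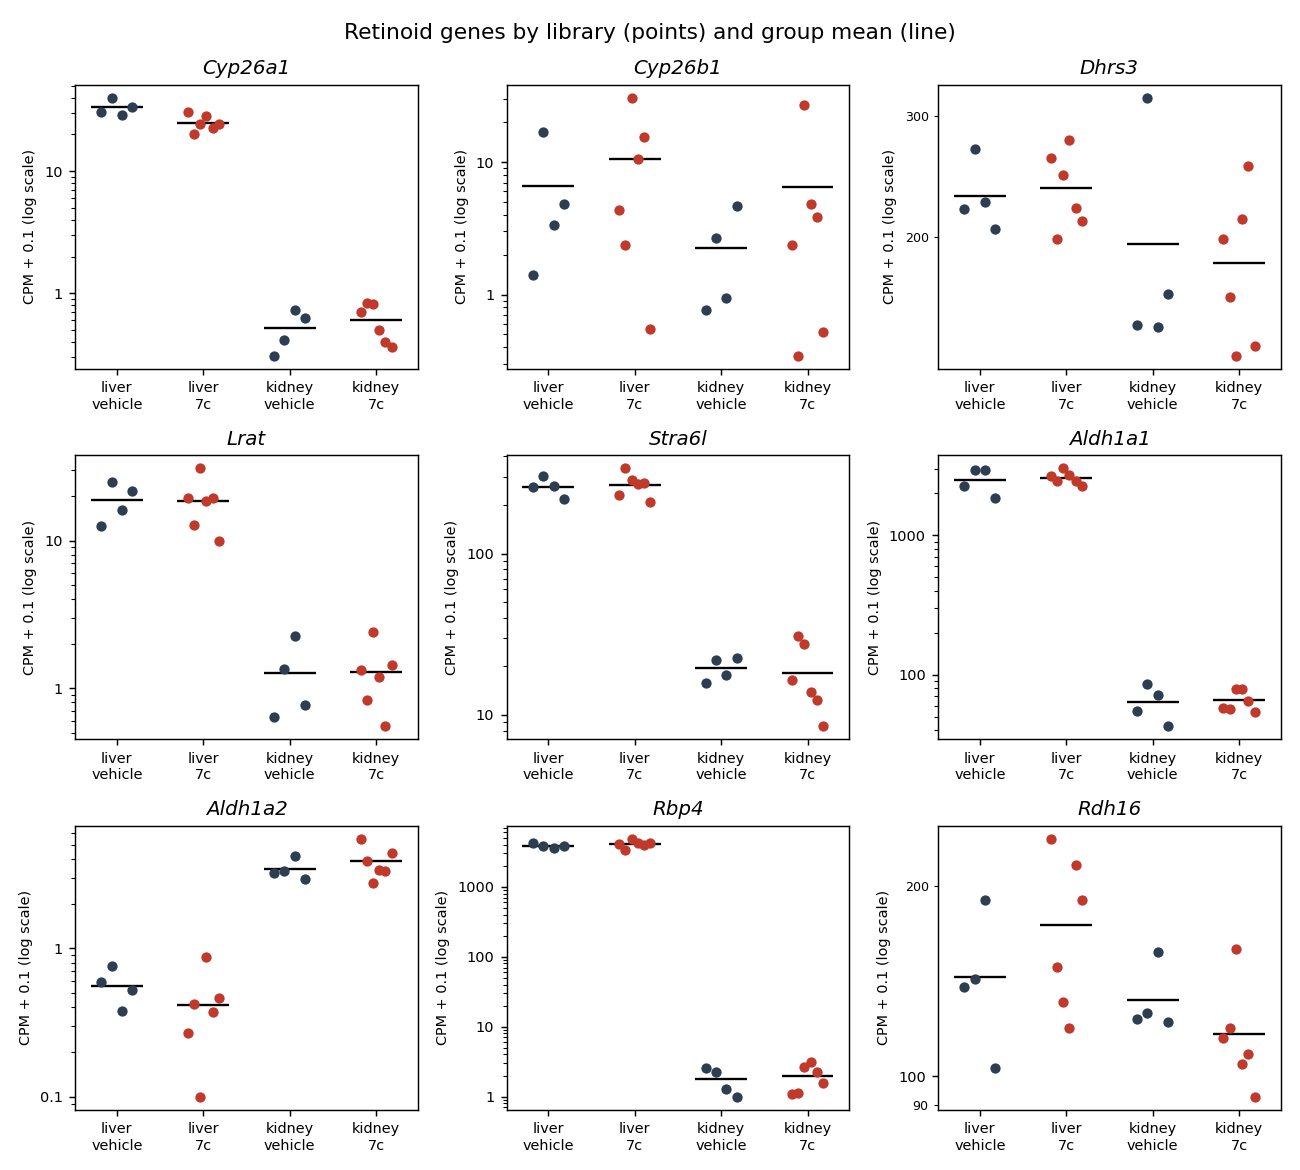
CPM + 0.1 on a log scale (vertical axis) for each of the 9 genes in every library (points, replicates from left to right) with the group mean (line), for liver and kidney and for vehicle (dark) and 7c (red). The axes differ between panels. Cyp26a1 in 7c livers lies below the vehicle livers except for replicate 1, and Cyp26b1 spreads over 0.454 to 30.5 CPM within the 7c livers.

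Cyp26b1 varied more between mice than any other member. In liver, 7c mice had 4.28, 2.26, 30.5, 10.5, 15.3 and 0.454 CPM, and vehicle mice 1.31, 16.7, 3.28 and 4.69 CPM. In kidney, 7c mice had 2.28, 0.244, 27.0, 4.75, 3.76 and 0.420 CPM, and vehicle mice 0.665, 2.55, 0.849 and 4.54 CPM. The highest value was that of 7c replicate 3 in both tissues, the lowest was that of 7c replicate 6 in liver and 7c replicate 2 in kidney, and the groups overlapped in both.

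Within the 7c group the highest Cyp26b1 value was 67.2 times the lowest in liver and 110 times in kidney. The counts behind the extremes were 751 and 10 in liver and 1264 and 10 in kidney. The SD of log2(CPM + 1) over the 10 livers was 1.42, which 36 of 14163 genes reached, itself included, and over the 10 kidneys it was 1.34, which 21 genes reached. The log2 fold change of 7c against vehicle was 0.71 ± 0.87 in liver and 1.58 ± 1.07 in kidney (unadjusted p = 0.429 and 0.165 in edgeR's quasi-likelihood test). Without 7c replicate 3 the values were 0.00 and 0.09. Leaving out single other libraries gave 0.37 (vehicle replicate 1) to 1.74 (vehicle replicate 2, unadjusted p = 0.0902 in edgeR's quasi-likelihood test) in liver and 1.28 (vehicle replicate 1) to 2.24 (vehicle replicate 4, unadjusted p = 0.101) in kidney. Single libraries therefore set the size of both values.

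Liver and kidney libraries carry replicate numbers, and the labels do not say that equal numbers mark the same mouse. Over the 10 numbers, log2(CPM + 1) of Cyp26b1 in liver and kidney had a Pearson r of 0.844 (permutation p = 0.00150) and a Spearman rho of 0.855 (permutation p = 0.00306). Without the numbers farthest from the median in liver, 7c replicates 3 and 6, r was 0.740 (permutation p = 0.0412), and within the 7c group alone it was 0.912 (n = 6, permutation p = 0.0136). Aldh1a1 had r = 0.910 (permutation p = 5.7e-04) and rho = 0.855 (permutation p = 0.00318), 0.818 without the 2 farthest (permutation p = 0.0164), and 0.785 within the 7c group (n = 6, permutation p = 0.0698). The 4 vehicle numbers are too few for a value of their own.

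Aldh1a1 spread far less than Cyp26b1. Its livers ran from 1867 CPM in vehicle replicate 4 to 3028 in 7c replicate 3, and its kidneys from 42.4 in vehicle replicate 4 to 86.1 in vehicle replicate 2. The SD of log2(CPM + 1) was 0.22 in liver and 0.31 in kidney, beside medians of 0.26 and 0.24 over all 14163 genes.

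These were 8 relations, 1 for each member tested in both tissues. Over all 14163 genes the median r was 0.05, and 0.876% of genes had an r as high as that of Cyp26b1 and 0.381% as high as that of Aldh1a1. With 10000 permutations and adjustment over all these genes, the adjusted permutation p was 0.271 for Cyp26b1 and 0.209 for Aldh1a1, and no gene of the 14163 passed, while 1027 had an unadjusted p under 0.05. Stra6l (r = 0.616, rho = 0.515) and Rbp4 (r = 0.608, rho = 0.709) came next, with unadjusted permutation p of 0.0567 and 0.0621 for r, and the r of Stra6l fell to 0.06 without its 2 farthest numbers. Dhrs3 had r = 0.522 and rho = 0.394 (permutation p of r = 0.121), and r was 0.115 without 7c replicate 4 and vehicle replicate 2, the numbers farthest from the median. Lrat (r = 0.308, rho = 0.152), Rdh16 (r = -0.181, rho = -0.224) and Cyp26a1 (r = -0.273, rho = -0.248) had permutation p of 0.386 or more.

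**Figure D4:**
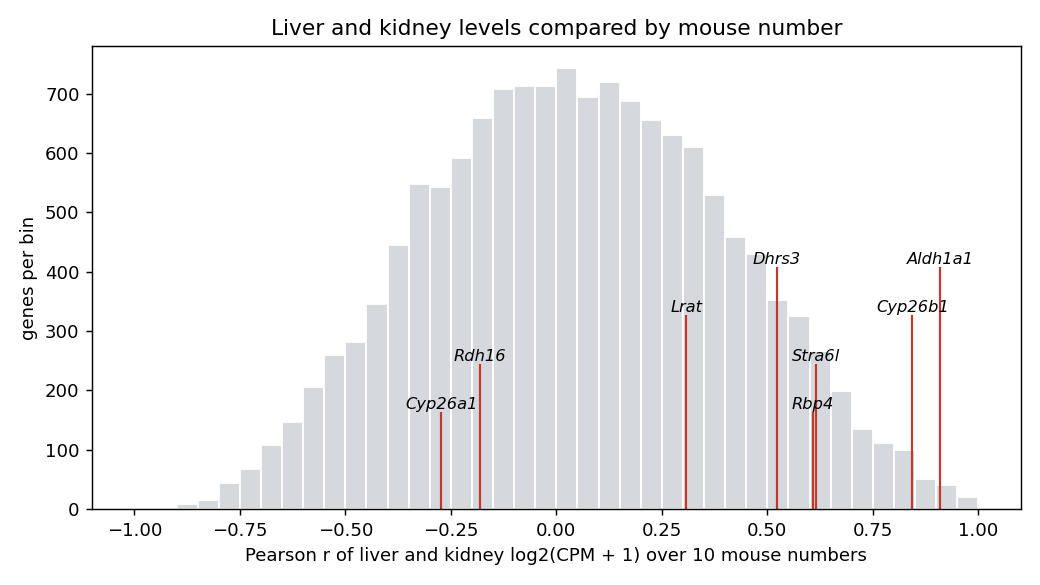
Number of genes (vertical axis) by Pearson r of liver and kidney log2(CPM + 1) over 10 mouse numbers (horizontal axis, bins of 0.05), with a red line for each of the 8 genes tested in both tissues. Aldh1a1 at 0.910 and Cyp26b1 at 0.844 lie in the right tail, and Cyp26a1 at -0.273 lies left of the median of 0.05.

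Aldh1a7, a close paralog of Aldh1a1 that lies 44.3 kb away on chromosome 19, had r = 0.910 and rho = 0.818 with Aldh1a1 over the 10 kidneys (permutation p = 5.6e-04), and r = 0.080 and rho = -0.030 over the 10 livers (permutation p = 0.827). Between liver and kidney Aldh1a7 itself had r = 0.025. Reads that match both paralogs could add to such a correlation, and their part was not tested.

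Lrat followed Cyp26b1 in liver. The 10 livers had 19.4, 12.7, 30.7, 18.3, 19.4 and 9.80 CPM of Lrat in 7c replicates 1 to 6 and 12.4, 24.8, 16.0 and 21.6 CPM in vehicle replicates 1 to 4. Both genes were highest in 7c replicate 3 and lowest in 7c replicate 6, and in the vehicle group both were highest in replicate 2. Pearson's r was 0.915 (permutation p = 3.4e-04), Spearman's rho 0.939 (permutation p = 2.6e-04), and r was 0.805 without the 2 livers farthest from the median of Cyp26b1 (permutation p = 0.0183). Of 15011 other genes tested in liver, 3 had an r with Cyp26b1 as high as this, Lrat included, and the adjusted permutation p over them was 0.750. In kidney r was 0.332.

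Lrat is a defining gene of hepatic stellate cells, and the other stellate markers were compared with both genes. The r with Cyp26b1 in liver was positive for 8 of 10 markers, with a median of 0.355, from -0.582 for Des to 0.586 for Reln. With Lrat it was positive for 8 of 10, with a median of 0.429, from -0.615 for Des to 0.631 for Reln. Des is also a muscle gene, and it stood at 39.9 CPM in the liver of 7c replicate 6, the library with 705 CPM of skeletal muscle markers, and at 8.14 CPM or less in the other livers. Without that library, which also had the lowest Cyp26b1 and Lrat, the median r fell to 0.07 with Cyp26b1 and to 0.24 with Lrat, and the r of Des was -0.30 and -0.23. The r of Cyp26b1 and Lrat without it was 0.878 (n = 9 livers). The summed level of the 11 markers was 472 to 687 CPM in 7c livers and 505 to 712 in vehicle livers, and none was called. The part of stellate cells in the Cyp26b1 values was not tested.

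**Figure D5:**
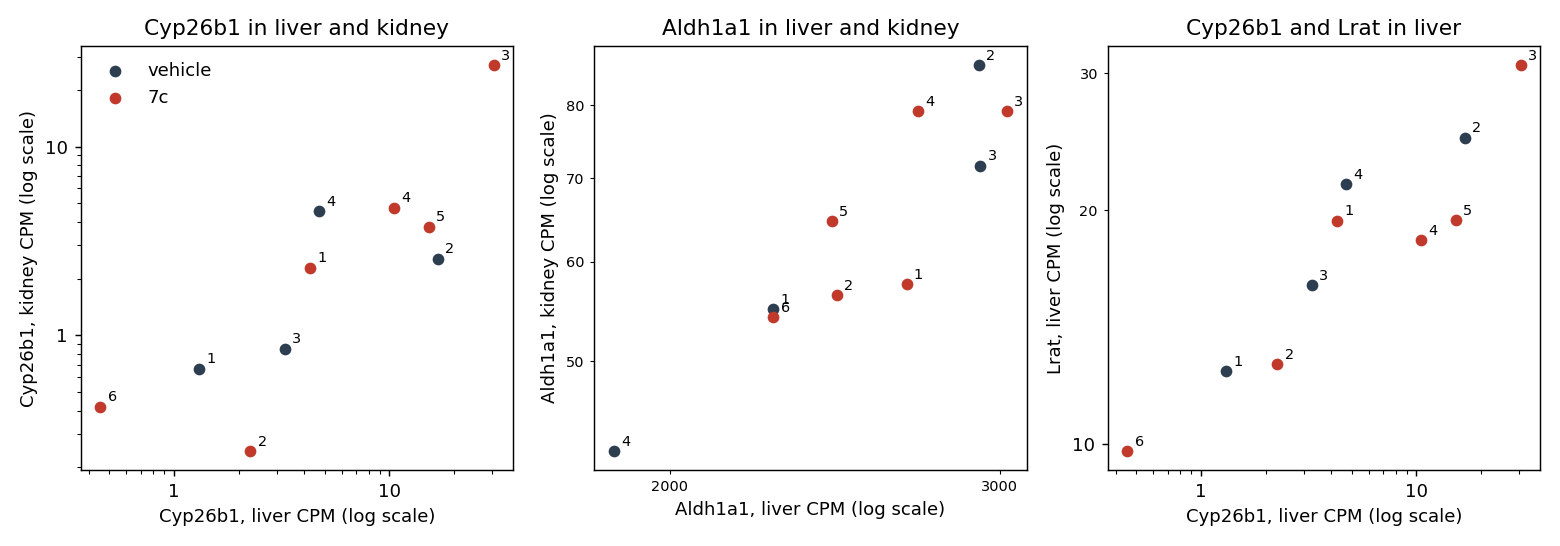
Left and middle, CPM in kidney against CPM in liver for Cyp26b1 and Aldh1a1, and right, Lrat against Cyp26b1 in liver, all on log scales, for 7c (red) and vehicle (dark) with replicate numbers beside the points. Cyp26b1 rises with Lrat from 7c replicate 6 at 0.454 and 9.80 CPM to 7c replicate 3 at 30.5 and 30.7 CPM.

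Among the members, 28 pairs were compared in liver and 36 in kidney. In liver 2 pairs had an unadjusted permutation p under 0.05, Cyp26b1 with Lrat and Dhrs3 with Aldh1a1 (r = 0.668, rho = 0.673, permutation p = 0.0336, r = 0.643 without the 2 farthest). In kidney 3 pairs did, Cyp26a1 with Stra6l (r = 0.702, rho = 0.782, permutation p = 0.0232, r = 0.680 without the 2 farthest), Stra6l with Rdh16 (r = 0.670, rho = 0.685, permutation p = 0.0331) and Aldh1a1 with Rbp4 (r = 0.642, rho = 0.564, permutation p = 0.0459, r = 0.519 without the 2 farthest). Against all genes tested, none of these passed, with adjusted permutation p of 0.750 or more.

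The genes most like Cyp26a1 over the 10 livers, by Spearman's rho among 15012 genes, were Mthfsl (0.964), 2310040G24Rik (0.927) and Abhd17c (0.915). Among those most like Dhrs3 were Tnfaip8l3 (0.927) and Aspa (0.915) in liver, and Eif3h (0.988), Tubgcp2 (0.988) and Mzt2 (0.976) among 17749 genes in kidney. Many genes followed Dhrs3 in kidney, where 31.6% of the 17748 others had a Pearson r with it as high as that of Aldh1a1 (0.415). All these genes were picked as the highest of many, and their likeness was not tested.

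The receptors of retinoic acid were measured in both tissues. Rxra, the main partner receptor of the liver, had 536 ± 55.7 CPM in liver and 145 ± 10.5 in kidney (SD, n = 10 each), and Rxrg 11.6 ± 2.40 and 0.656 ± 0.261. Rarb, whose repeat is shown above, had 2.15 ± 0.966 CPM in liver and 1.12 ± 0.570 in kidney. For 7c against vehicle Rarb had a log2 fold change of -0.44 ± 0.44 in liver and -0.68 ± 0.42 in kidney (unadjusted p = 0.329 and 0.132), and Rara -0.20 ± 0.15 and 0.16 ± 0.21. Rarg, Rxra, Rxrb and Rxrg lay between -0.24 and 0.17 in both tissues. None of the 13 receptors and cofactors tested was called in either tissue.

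Among carriers, Ttr, the plasma partner of Rbp4, had 7618 ± 1159 CPM in liver and 151 ± 58.7 in kidney. Stra6, the receptor for retinol-binding protein in the eye and other tissues, had 0 counts in all 10 livers, where a count of 0 allows up to 3 counts per library, and 3.72 ± 1.36 CPM in kidney. Lrp2, the tubular receptor that takes filtered retinol-binding protein back up, had 0.916 ± 0.444 CPM in liver and 1249 ± 183 in kidney. Crabp1 and Crabp2, the cellular retinoic acid binding proteins, had 0 counts in every liver and at most 4 in any kidney.

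Of the other enzymes, Rdh7 had 1888 ± 147 CPM in liver and 0.974 ± 0.492 in kidney, Adh1 1496 ± 140 and 514 ± 138, and Rdh11 177 ± 40.2 and 12.5 ± 2.15, while Rdh10, which makes retinal for retinoic acid synthesis, had 34.4 ± 4.78 and 61.1 ± 11.7. The carotenoid cleaving enzymes Bco1 and Bco2 had 10.2 ± 2.89 and 17.5 ± 6.46 CPM in liver and 4.61 ± 1.04 and 8.48 ± 2.29 in kidney, and both were called higher in liver. Aldh1a3 had 0.680 ± 0.682 and 0.575 ± 0.314 CPM, and Cyp26c1, which lies 2.17 kb from Cyp26a1, had 3 to 28 counts in liver and 0 to 8 in kidney. Tgm2, a retinoic acid target in several cell types, had 114 ± 5.50 CPM in liver and 194 ± 30.7 in kidney, and 7c against vehicle gave 0.03 ± 0.08 and -0.05 ± 0.14 on the log2 scale.

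For 7c against vehicle, no gene of the 6 lists of carriers, enzymes, receptors and response genes was called in either tissue. Among the genes at an unadjusted p under 0.05 in liver were Asb2, a retinoic acid induced gene of myeloid cells, with 5.08 ± 2.08 against 2.42 ± 1.01 CPM (log2 fold change 1.04 ± 0.37, unadjusted p = 0.0148), and Aldh1a7 (0.30 ± 0.14, unadjusted p = 0.0498). In kidney Rdh7 was among them (-0.83 ± 0.37, unadjusted p = 0.0445, at 30 to 94 counts), although without vehicle replicate 2 its log2 fold change was -0.51 (unadjusted p = 0.205). Their adjusted p was 0.997 or more in edgeR's quasi-likelihood test. Of 18 response genes tested in kidney, 5 had a positive and 13 a negative log2 fold change, with a median of -0.05, and of 13 tested in liver 8 were positive, with a median of 0.03. Over all genes tested, 8695 were positive and 9054 negative in kidney (median -0.01), and 7563 and 7449 in liver (median 0.00). Whether the list differed from all genes was not tested.

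Markers of the tissues were where the labels put them. Summed hepatocyte markers ran from 87083 to 127837 CPM in liver and from 1679 to 2333 in kidney, where Cyp2e1 made up most of them, and summed proximal tubule markers from 27301 to 56776 CPM in kidney and from 0.587 to 2.00 in liver. In the fit used here, no gene of the 13 marker lists tested was called for 7c against vehicle in either tissue. The paper, with its own edgeR fit, lists the adipocyte marker Cidec as higher in 7c kidneys.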

How the data were processed

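Bulk mRNA-seq libraries of liver and kidney were made by the authors from male UM-HET3 mice. Per the labels and the submitters' processing notes, reads were aligned to GRCm39 with STAR 2.7.11b and counted on genes with featureCounts 2.0.6. The deposited values are raw counts per Ensembl gene, without normalization. The annotation release, the strand setting and the treatment of multi-mapping and paired reads are not given in the sources used here. Of counts from 1 to 20, 75.1% to 83.2% per library were even numbers and whether both reads of a pair were counted was not tested. Symbols, positions and lengths (merged exons) came from GENCODE vM39, and 56310 genes matched.

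A gene entered a comparison where 50% or more of its libraries held 10 counts or more, and testing used edgeR 4.0.16 (TMM, quasi-likelihood F-test, R 4.3.3), with Benjamini-Hochberg adjustment over all genes tested and a threshold of 0.05. The tissue comparisons and the interaction used the same method. Exact permutation tests used log2(CPM + 0.1), and correlations log2(CPM + 1) with 100000 permutations, or 10000 where every gene was included. The test was tested on simulated data, in which it recovered 47.9% of genes changed by 1 and 81.5% of those changed by 2 on the log2 scale in liver (14610 genes), and 47.5% and 85.3% in kidney (17296 genes). Alternatives were RLE size factors, DESeq2 1.42.0, the likelihood ratio test, limma-voom (limma 3.58.1), no filter, filterByExpr, a replicate block, both tissues in 1 fit, leaving out replicates, and the longest transcript as length.

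The members, the lists, the markers and the rule for named genes were chosen with earlier results of these data known. The rule named all members, a fixed set of pathway genes, up to 2 genes per list and tissue with the lowest p under 0.05, and 3 genes most like Cyp26a1 in liver and Dhrs3 in each tissue. The marker genes, Rdh19, Rdh9 and Rdh16f2 were named after values were seen. Some genes that the rule names are not reported here. Nothing states that the samples of a group came from separate litters or days, and p-values measure the spread between these samples.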

Additional observations from a re-analysis of the deposited data

Results flagged for a closer look

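In 36 groups of members and libraries, 3 held a library far from the others of its group by Dixon's test, which chance does in about 1 of 20 groups. Cyp26b1 in the kidney of 7c replicate 3 stood at 27.0 CPM, above 0.244 to 4.75 in the other 5. Dhrs3 in the kidney of vehicle replicate 2 stood at 319 CPM, above 147 to 165 in the other 3. Rdh16 in the kidney of vehicle replicate 3 stood at 157 CPM, above 122 to 126 in the other 3.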

How the results depend on the processing

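The count of genes called for 7c against vehicle in liver was 1 and became 6 with DESeq2, 7 with the likelihood ratio test, 4 with no filter, 2 with filterByExpr, 4 with both tissues in 1 fit and 0 to 2 without single replicates. In kidney the count was 0 and became 18 with DESeq2, 14 with the likelihood ratio test, 2 with limma-voom, 3 with no filter, 18 with both tissues in 1 fit and 0 to 3 without single replicates. For the interaction it was 1 and became 16, 22 and 0 with DESeq2, the likelihood ratio test and limma-voom, 11 with no filter, 4 with filterByExpr and 0 to 6 without single replicate numbers. The cause was not tested. Without single replicate numbers, 7958 to 9328 genes were called between vehicle tissues and 10525 to 11238 between 7c tissues. No member was called among 306 alternative values for 7c against vehicle (lowest adjusted p 0.553) or 136 for the interaction, and the sign turned in 29 of the 306. The log2 fold change of Cyp26a1 in liver was negative in all 18 alternatives, with unadjusted p of 0.00189 to 0.0650. The correlation of liver and kidney ran from 0.790 to 0.900 for Cyp26b1 and from 0.844 to 0.948 for Aldh1a1 over alternatives chosen after seeing the data.

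For 7c against vehicle, a replicate block kept only the numbers that both groups held and set different mice of equal number side by side. Nothing in the labels links such mice. This block called 0 genes in liver and 0 in kidney, and a block by treatment and number called 0 for the interaction. Between tissues the replicate block gave 8744 genes in vehicle and 11012 in 7c mice, and Cyp26b1 then passed at log2 differences of 1.43 (adjusted p = 0.0316) and 1.18 (adjusted p = 0.0125), as did Dhrs3 in 7c mice at 0.36 (adjusted p = 0.0396, edgeR's quasi-likelihood test). Over all genes, 6 of 10 livers were most like the kidney of their own number among the kidneys of the same treatment. Over the 100, 200, 500 or 1000 genes varying most, chosen after seeing the data, 10 of 10 were, among all kidneys. This match is a hint from the data and not the design.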
